A study of Mus musculus with 24 samples.

Results

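The genes described here are 9 chemokine receptors of mouse blood leukocytes: *Ccr1*, *Ccr2*, *Ccr3*, *Ccr6*, *Ccr9*, *Cxcr2*, *Cxcr3*, *Cxcr4* and *Cxcr5*. They were taken by name, as every array probe annotated to one of these symbols, which gave 10 probes of the 39429 that are not controls. *Ccr9* had a pair of probes and each of the other receptors had 1. Of the 10 probes, 9 passed the filter on dim signals, which asks for signal significantly above background in more than 75% of the arrays, so that all 9 receptors were among the 17523 genes tested, and the second *Ccr9* probe did not.

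Chemokine receptors are G protein-coupled receptors with which leukocytes sense gradients of chemokines and move along them, from marrow to blood and from blood into lymphoid organs or inflamed tissue. Each kind of leukocyte carries its own set. In mice, *Cxcr5* and *Ccr6* are carried mainly by B cells and by some T cells, *Ccr9* by T cells bound for the gut, *Cxcr3* by activated T cells and natural killer (NK) cells, *Cxcr4* by most leukocytes, *Ccr2* by inflammatory monocytes, *Ccr1* by monocytes and neutrophils, *Cxcr2* by neutrophils and *Ccr3* by eosinophils. RNA of these receptors in whole blood therefore depends both on which cells are present and on how much receptor RNA each cell holds. In bulk samples such as these, fewer cells of a type and less RNA per cell cannot be told apart.

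Whole blood of male C57BL/6 mice, 1 mouse per array, was measured on single-colour Agilent arrays. The 4 groups were young (2 months) and old (21 months) mice, each sham-irradiated (unirradiated) or exposed to 4 Gy of total body x-rays, with 6 mice in each group. All mice were bled 24 h after exposure or sham exposure by cardiac puncture, and globin RNA was reduced in every sample. The question asked of the receptors was how their RNA differed after irradiation at each age, and between the ages at each dose. All values below are log2 signals relative to the median of each array, so that a value of 1 is a signal 2 times the array median. A gene was called a differentially expressed gene (DEG) where the two-sided moderated test of limma gave p below 0.005 and, after Benjamini-Hochberg adjustment over all genes tested, an adjusted p below 0.05.

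The median processed signal per array was between 8.66 and 44.8, and between 43.9% and 64.4% of spots were well above background. Scan day split exactly by age, so the 2 cannot be told apart. Dose was split by slide in large part. Slides 1, 3, 4 and 6 each held a single group, and only slides 2 (young) and 5 (old) held both doses, with 2 mice of each. A dose difference estimated with slide as a fixed block is therefore the difference within slide 2 or 5, of 2 irradiated and 2 unirradiated mice. Old irradiated mice 4 and 6 stood apart from the other 4 of their group. Their arrays were the dimmest of all, with median processed signals of 8.66 and 8.84 against 18.3 to 33.1 in the other 4. The SD of the log2 difference between repeat spots was 0.232 and 0.227 on them, against 0.104 to 0.133 in the other 4. Among young mice it reached 0.383. The part of array brightness in the values of old irradiated mice 4 and 6 was not tested. The red cell markers of mice 4 and 6 (mean log2 signal of 6 genes) were at 8.36 and 8.37 against 4.04 to 5.15, and their monocyte markers (8 genes) at 4.01 and 3.95 against 6.45 to 7.33. Hepatocyte markers (14 genes) were high in old irradiated mice 2, 3 and 5 (8.60 to 9.35) and young irradiated mice 2, 4 and 5 (9.03 to 10.1), between 0.21 and 6.28 in young unirradiated mice and between -1.05 and -0.43 in all 6 old unirradiated mice. Old unirradiated mice 1 and 6 were the most similar pair of arrays. The SD of their log2 difference over genes was 0.182, against 0.274 for the next pair and 0.119 and 0.142 between repeat spots within those 2 arrays. Repeat spots hold no variation between arrays, so these values cannot tell 2 mice from 1 sample measured 2 times. They were kept as 2 mice, as labelled, and also counted as 1 in an alternative.

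**Figure D1:**
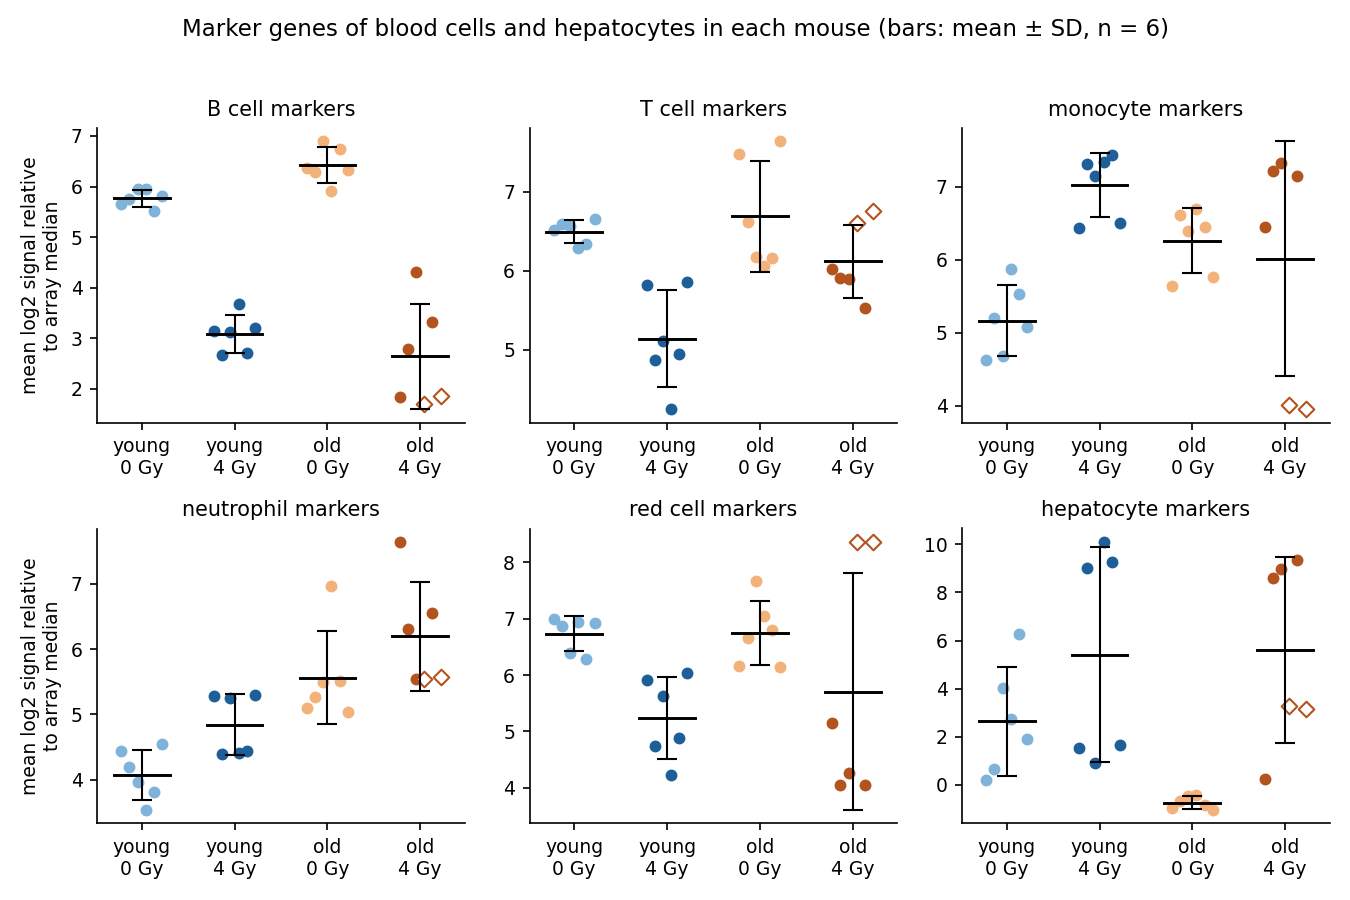
Mean log2 signal relative to the array median (y axes) of 6 lists of marker genes in each mouse, by age and dose (x axes). Points are mice, black lines are the mean ± SD of 6 mice, and open diamonds are old irradiated mice 4 and 6, which lay above the other old irradiated mice in red cell markers and below them in monocyte markers.

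The array read each receptor through a 60-base probe. The opening 30 bases of the probes of 4 receptors on which the results turn are shown in lower case, because each value below is the brightness of that single stretch of sequence. Their positions are those in the scanner files (mm9): *Ccr6* at chr17:8449933-8449992 on the plus strand, *Cxcr5* at chr9:44320071-44320130 on the minus strand, *Ccr2* at chr9:124022948-124023007 on the plus strand and *Cxcr2* at chr1:74206886-74206945 on the plus strand.
Ccr6: acacgagagcacaaagcaacattgccccaa
Cxcr5: gggaaaccaatgctatagcttcagagactg
Ccr2: gaagcagggacagaattcttgctttgaaaa
Cxcr2: aagggtggggagttcgtgtagaagacacag
No stretch longer than 8 bases was shared by any pair of receptor probes, and 0 of the 39419 other probes on the array shared a run of 20 bases with one of them. No spot of the 10 probes was saturated or marked non-uniform on any of the 24 arrays.

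The 250 bases before the start of *Ccr6* and of *Cxcr2* are shown because *Ccr6* fell furthest after irradiation at both ages, and because *Cxcr2* was higher in young irradiated and in old unirradiated mice than in young unirradiated mice. They are RefSeq sequences of build GRCm38.p6, from chr17:8235793-8236042 for *Ccr6*, which has a second start in that table, and from chr1:74153744-74153993 for *Cxcr2*, both on the plus strand. Capitals mark every match, on either strand, to 4 short motifs, which resemble the cores bound by ETS factors (letters AGGAAG), RUNX factors (letters TGTGGT), E-box factors (letters CAGNTG) and C/EBP factors (letters TTNNGNAA).
Ccr6: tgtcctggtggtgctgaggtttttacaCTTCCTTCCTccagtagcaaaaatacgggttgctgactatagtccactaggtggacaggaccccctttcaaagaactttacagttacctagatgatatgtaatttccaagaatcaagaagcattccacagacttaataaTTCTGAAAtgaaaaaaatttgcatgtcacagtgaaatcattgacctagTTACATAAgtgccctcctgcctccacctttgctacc
Cxcr2: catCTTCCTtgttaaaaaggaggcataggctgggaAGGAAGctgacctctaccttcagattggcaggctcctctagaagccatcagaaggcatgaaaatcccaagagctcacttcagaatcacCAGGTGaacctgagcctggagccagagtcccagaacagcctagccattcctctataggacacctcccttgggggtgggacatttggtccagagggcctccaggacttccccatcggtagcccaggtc
The *Ccr6* window held 2 matches to AGGAAG, which overlap each other, and 2 to TTNNGNAA. The *Cxcr2* window held 2 matches to AGGAAG and 1 to CAGNTG. Among all 32851 windows of this length in the table, 29.5% held AGGAAG, 14.0% TGTGGT, 44.8% CAGNTG and 36.8% TTNNGNAA, so these letters are common, and a match is no evidence that a factor binds there.

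Irradiation lowered the B cell receptors *Ccr6* and *Cxcr5* at both ages, *Ccr6* by more than any other of the 9. In young mice 6 of 9 receptors were DEGs (background 35.7% of all genes tested): *Ccr6*, *Cxcr5*, *Ccr9* and *Cxcr4* were downregulated (background 21.3%), and *Cxcr2* and *Ccr1* upregulated (background 14.4%). In old mice 3 of 9 were DEGs (background 24.9%), and all 3, *Ccr6*, *Cxcr5* and *Ccr2*, were downregulated (background 17.3%, with 7.6% of all genes upregulated). The values of the 2 doses were fully separate for 5 receptors in young mice (background 24.9%) and for 2 in old mice (background 22.6%). The median log2 difference over the 9 receptors was 0.10 in young and -0.54 in old mice, beside -0.20 and -0.25 over all genes. Under scaling to the 75th percentile the median of all genes in old mice moved from -0.25 to 0.28, and the genes called from 1332 upregulated and 3037 downregulated to 1826 and 1885, so that small differences in old mice depend on the scaling.

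**Figure D2:**
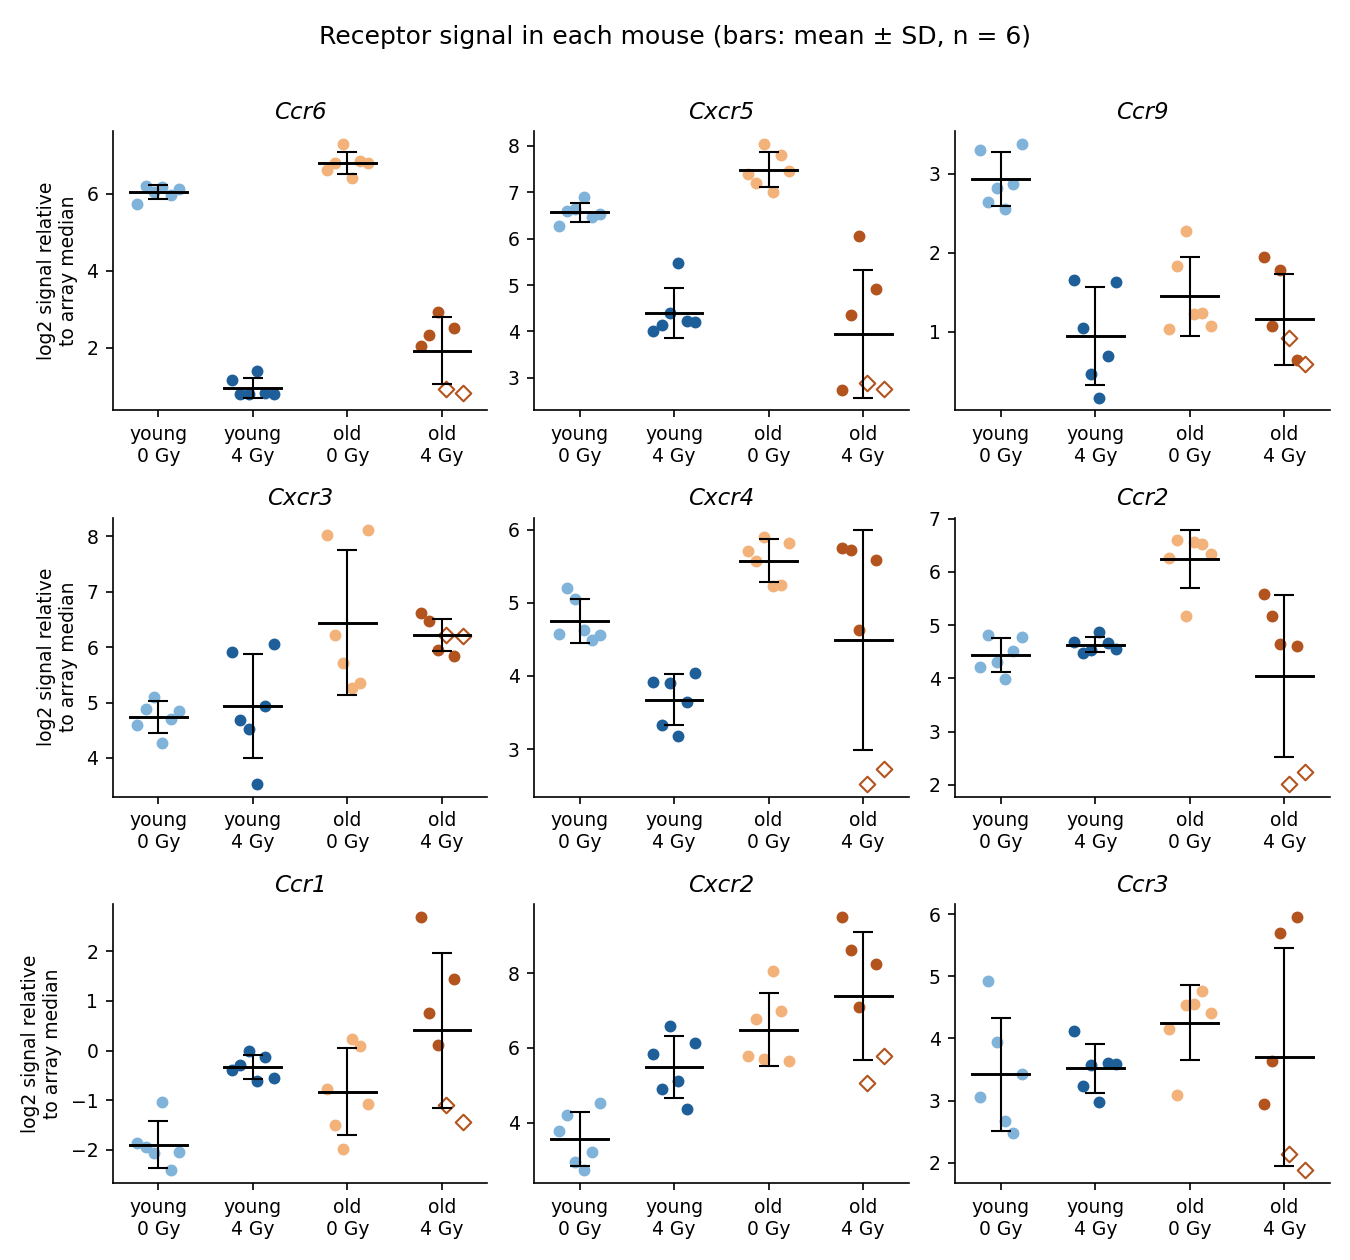
Log2 signal relative to the array median (y axes) of each receptor in each of the 24 mice, by age and dose (x axes). Points are mice, black lines are the mean ± SD of 6 mice, open diamonds are old irradiated mice 4 and 6, and *Ccr6* separates irradiated from unirradiated mice by more than 3 log2 units at both ages.

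**Figure D3:**
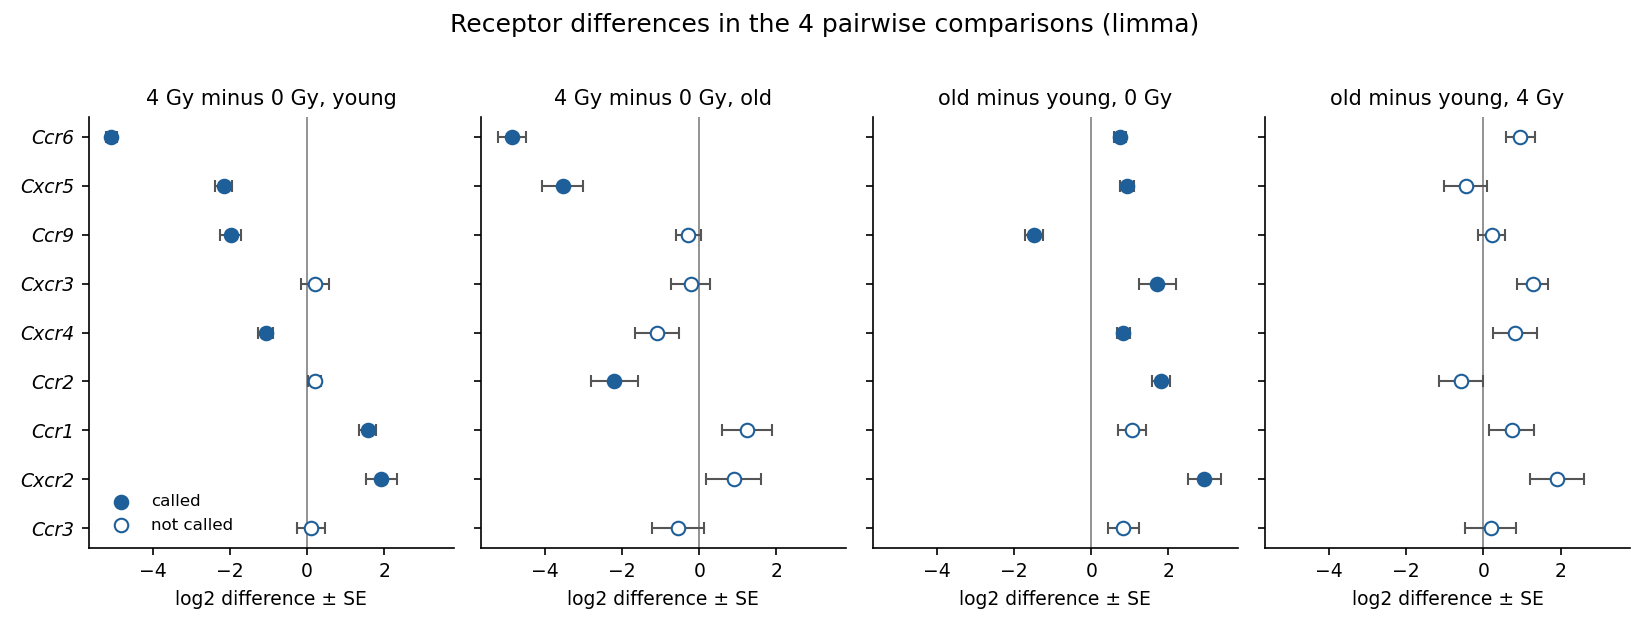
Log2 difference ± SE (x axes) of each receptor (y axis) in the 4 pairwise comparisons. Filled points are DEGs and open points are not, and the DEGs number 6, 3, 7 and 0 from left to right.

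*Ccr6*, the receptor for CCL20, had signals of 5.74 (lowest), 6.08 (median) and 6.21 (highest) in young unirradiated mice and of 0.80, 0.82 and 1.41 in young irradiated mice. In old mice the values were 6.41, 6.79 and 7.28 without and 0.84, 2.18 and 2.94 with irradiation. Irradiated and unirradiated mice did not overlap at either age. The difference was -5.07 ± 0.15 (log2, SE, limma adjusted p = 8.93e-10), or 33.6-fold lower, in young mice and -4.85 ± 0.37 (limma adjusted p = 1.51e-05), or 28.9-fold lower, in old mice. From the lowest to the highest mean the groups were ordered young irradiated, old irradiated, young unirradiated and old unirradiated, and the neighbours that overlapped were the 2 irradiated groups. The fall remained a DEG under every alternative tried, and was smallest with normexp background correction (-3.31 in young and -3.12 in old mice). Normexp was run with an offset of 50, which is above the median processed signal of every array (8.66 to 44.8). Over all genes, calls fell under it from 6251 to 835 for the young and from 4369 to 8 for the old. A call lost under normexp, here and below, is therefore not particular to that receptor.

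*Cxcr5*, the receptor for CXCL13 that guides B cells into follicles, was at 6.27, 6.56 and 6.89 (lowest, median and highest) in young unirradiated mice and at 4.00, 4.21 and 5.47 in young irradiated mice. In old unirradiated mice it was at 7.02, 7.43 and 8.04. The 6 old irradiated mice spread far more, at 2.74, 4.35, 6.05, 2.88, 4.92 and 2.76 for mice 1 to 6, and none reached the lowest old unirradiated mouse. The difference was -2.17 ± 0.23 (limma adjusted p = 1.85e-05) in young and -3.54 ± 0.54 (limma adjusted p = 0.000729) in old mice. Within the slide of old mice that held both doses it was -4.09. Under normexp the call was lost at both ages (adjusted p = 0.157 in young and 0.105 in old mice). With slide as a fixed block, which rests on that same -4.09, it was lost in old mice (adjusted p = 0.052).

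Markers of B cells moved with both receptors. The background for the marker counts after irradiation, here and below, is 14.4% of all genes upregulated and 21.3% downregulated in young mice. In old mice it is 7.6% and 17.3%. Of 9 B cell markers, 9 were downregulated in young and 8 in old irradiated mice, and their summed signal, as a multiple of the array median, was between 1605 and 1999 in young unirradiated, 206 and 592 in young irradiated, 1854 and 3743 in old unirradiated and 55.8 and 897 in old irradiated mice. The median difference over the list was -2.47 in young and -3.88 in old mice. *Ccr6* fell by more than the median marker at both ages, and *Cxcr5*, at -2.17 and -3.54, fell by less. The part of B cell numbers in the falls was not tested.

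*Ccr9*, the receptor for CCL25 that directs T cells to the small intestine, was at 2.55, 2.84 and 3.37 in young unirradiated mice and at 0.17, 0.87 and 1.66 in young irradiated mice, with no overlap. It was already low in old mice, at 1.04, 1.24 and 2.28 without and 0.60, 0.997 and 1.95 with irradiation, and these groups overlapped. The difference was -1.98 ± 0.27 (limma adjusted p = 0.000108) in young and -0.29 ± 0.32 (limma adjusted p = 0.508) in old mice. Young unirradiated mice lay above the other 3 groups, which overlapped each other. The call in young mice was lost under normexp (adjusted p = 0.0952). The second *Ccr9* probe was well above background in 2 of 24 arrays, both of young unirradiated mice, and was not tested.

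*Cxcr3*, the receptor for CXCL9, CXCL10 and CXCL11 on activated T cells and NK cells, was at 4.27, 4.78 and 5.10 in young unirradiated and at 3.53, 4.81 and 6.06 in young irradiated mice. The old unirradiated values were 5.26, 5.96 and 8.11 and the old irradiated values 5.85, 6.21 and 6.61. Neither difference after irradiation was called, at 0.20 ± 0.37 (limma adjusted p = 0.683) in young and -0.23 ± 0.50 (limma adjusted p = 0.747) in old mice. The 2 highest values of all 24 arrays, 8.02 and 8.11, were those of old unirradiated mice 1 and 6, whose T cell markers were also the highest, at 7.48 and 7.64. In the order of the means, young unirradiated, young irradiated, old irradiated and old unirradiated, each neighbour overlapped the next.

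*Cxcr4*, the receptor for CXCL12 that holds leukocytes in the marrow, was at 4.48, 4.60 and 5.20 in young unirradiated mice and at 3.18, 3.77 and 4.04 in young irradiated mice, with no overlap. In old unirradiated mice it was at 5.23, 5.64 and 5.90. In old irradiated mice 1 to 6 it was at 5.74, 5.72, 4.63, 2.52, 5.59 and 2.72, so that mice 4 and 6 lay below all other arrays and mice 1, 2 and 5 within the unirradiated range. The difference in young mice was -1.08 ± 0.19 (limma adjusted p = 0.000652), and was not called with slide as a fixed block (adjusted p = 0.114), under normexp (adjusted p = 0.648) or in 1 fit of all 24 arrays (adjusted p = 0.0686). In old mice it had nearly the same size with a wider error, -1.09 ± 0.57 (limma adjusted p = 0.154), and without mice 4 and 6 it was -0.16 (adjusted p = 0.63).

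T cell and NK cell markers were measured beside these 3 receptors. Of 10 T cell markers 8 were downregulated in young irradiated mice, with a median of -1.12, and 1 in old irradiated mice, with a median of -0.66. Of 7 NK cell markers 5 were upregulated in young irradiated mice, with a median of 1.62, and in old mice limma called 0 of them, with 2 at an unadjusted p below 0.05. The part of these cells in the receptor values was not tested.

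*Ccr2*, the receptor for CCL2 by which inflammatory monocytes leave the marrow, was at 4.00, 4.41 and 4.81 in young unirradiated and at 4.49, 4.61 and 4.88 in young irradiated mice, which overlapped. Old unirradiated mice were higher, at 5.17, 6.43 and 6.60. Old irradiated mice 1 to 6 were at 5.58, 5.17, 4.65, 2.02, 4.62 and 2.25. The values of old irradiated and unirradiated mice overlapped through irradiated mouse 1 and unirradiated mouse 3, the lowest of its group, and irradiated mouse 2 lay just below the latter. The difference was 0.20 ± 0.16 (limma adjusted p = 0.345) in young and -2.20 ± 0.60 (limma adjusted p = 0.0133), or 4.58-fold lower, in old mice. Without old irradiated mice 4 and 6 the fall was smaller, -1.24, and remained called (adjusted p = 0.0068), whereas leaving out old unirradiated mouse 1, 2, 4, 5 or 6 or old irradiated mouse 6, or averaging old unirradiated mice 1 and 6, gave differences of -2.19 to -1.84 at p between 0.00527 and 0.00656, just past the threshold of 0.005. Within the slide of old mice that held both doses the difference was -1.05. Its irradiated mice were 1 and 2, the highest of their group. The fit with slide as a fixed block rests on that same difference and did not call it (adjusted p = 0.546). Under normexp it was not called either (adjusted p = 0.496).

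*Ccr1*, a receptor for CCL3, CCL5 and CCL9 on monocytes and neutrophils, was dim. It was significantly above background in 20 of 24 arrays, but by the stricter flag used below its signal was not well above background in any young unirradiated mouse and was so in 3 young irradiated, 2 old unirradiated and 4 old irradiated mice. It was at -2.42, -1.99 and -1.03 in young unirradiated and at -0.61, -0.34 and -0.01 in young irradiated mice, with no overlap. The unirradiated level is only a bound, which sets the dim arrays at the lowest signal well above background. Against that bound the mean of the irradiated young mice was 1.38-fold higher. Only 3 of these 6 mice were themselves well above background, so the fold is approximate and not a minimum. The measured difference of 1.57 ± 0.21 was called (limma adjusted p = 9.91e-05). This call was lost in the deposited table (adjusted p = 0.107) and, at a p just past 0.005, in 1 fit of all 24 arrays. Old mice were at -1.99, -0.92 and 0.24 without and -1.45, 0.43 and 2.70 with irradiation, and the difference of 1.24 ± 0.66 was not called (limma adjusted p = 0.161). Without old irradiated mice 4 and 6 it was 2.08 and called (adjusted p = 0.00889).

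Monocyte markers, 8 in number, included 6 DEGs, all upregulated, in young irradiated mice, with a median of 2.13, and 1 upregulated and 1 downregulated DEG in old irradiated mice, with a median of -0.32. Their mean log2 signal was between 4.63 and 5.88 in young unirradiated, 6.44 and 7.44 in young irradiated, 5.65 and 6.70 in old unirradiated and 3.95 and 7.33 in old irradiated mice. In young mice, where these 6 rose, *Ccr2* differed by 0.20. The other two were not called there, *Csf1r*, the receptor for the macrophage growth factor M-CSF, at 0.52 (limma adjusted p = 0.0188) and *Ms4a6c*, named after its values were seen, at 0.20. In old mice, *Ccr2* and the list were both lowest in irradiated mice 4 and 6, and the part of monocyte numbers in the *Ccr2* values was not tested.

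*Cxcr2*, the receptor for CXCL1, CXCL2, CXCL5 and PPBP by which neutrophils leave the marrow, was at 2.72, 3.49 and 4.52 in young unirradiated and at 4.38, 5.47 and 6.58 in young irradiated mice. These groups overlapped through the lowest irradiated and the highest unirradiated mouse. Old unirradiated mice were at 5.65, 6.27 and 8.07. Old irradiated mice 1 to 6 were at 9.51, 8.61, 7.09, 5.05, 8.24 and 5.80, and overlapped the unirradiated mice over their whole range. The difference was 1.92 ± 0.41 (limma adjusted p = 0.00191), or 3.79-fold, in young mice and 0.89 ± 0.72 (limma adjusted p = 0.35) in old mice. Without old irradiated mice 4 and 6 it was 1.87 (adjusted p = 0.0157), close in size to the young value, and was not called at p below 0.005. In young mice the call was lost with slide as a fixed block (1.49, adjusted p = 0.21).

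Of 11 neutrophil markers, 4 were upregulated in young irradiated mice, with a median of 0.71, and in old irradiated mice limma called 0, also at an unadjusted p below 0.05, with a median of 0.51. Platelet markers, 7 in number, were all upregulated at both ages, with medians of 2.00 in young and 1.91 in old mice. The part of either cell type in the *Cxcr2* values was not tested.

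*Ccr3*, the eotaxin receptor of eosinophils, was at 2.48, 3.25 and 4.93 in young unirradiated and at 2.97, 3.58 and 4.13 in young irradiated mice. Old unirradiated mice were at 3.09, 4.47 and 4.76, and old irradiated mice spread widest, at 2.95, 3.64, 5.69, 2.14, 5.96 and 1.87 for mice 1 to 6. All 4 groups overlapped. The differences were 0.10 ± 0.37 (limma adjusted p = 0.851) in young and -0.54 ± 0.68 (limma adjusted p = 0.553) in old mice. Of 6 eosinophil markers tested, limma called 0 after irradiation at either age, with 2 in young and 3 in old mice at an unadjusted p below 0.05. *Epx*, which encodes eosinophil peroxidase, was not well above background in any array.

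The old irradiated group had the widest spread of the 4 groups for all receptors but *Ccr9* and *Cxcr3*. Its SD was between 0.29 (*Cxcr3*) and 1.76 (*Ccr3*) log2 units, and for 6 receptors, *Ccr1*, *Ccr2*, *Ccr3*, *Ccr6*, *Cxcr2* and *Cxcr4*, mice 4 and 6 held the 2 lowest values of the 6. Leaving out these 2 mice, a choice made after seeing the data, kept *Ccr6* (-4.33), *Cxcr5* (-2.97) and *Ccr2* (-1.24) as DEGs in old mice and added *Ccr1*, beside 6063 of all genes. Leaving out the hepatocyte-marker-rich mice 2, 3 and 5 instead kept the 3 DEGs at -5.51, -4.69 and -2.96 and added *Ccr3* (-1.93, adjusted p = 0.00303), beside 7078 of all genes. In young mice, leaving out the hepatocyte-marker-rich mice 2, 4 and 5 kept all 6 DEGs, with differences of -5.11 for *Ccr6* and 2.61 for *Cxcr2*.

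**Figure D4:**
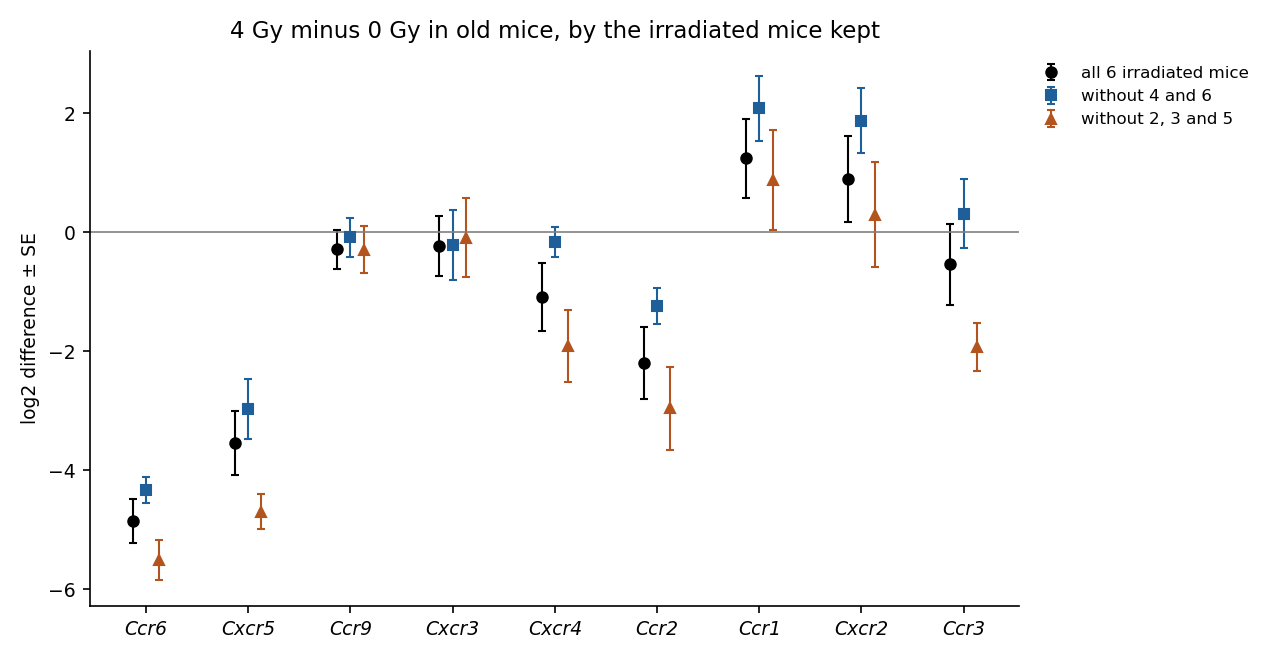
Log2 difference ± SE between old irradiated and old unirradiated mice (y axis) of each receptor (x axis), with all 6 irradiated mice, without mice 4 and 6 and without mice 2, 3 and 5. *Ccr6*, *Cxcr5* and *Ccr2* are below 0 in each case, while *Ccr3* is at 0.31 without mice 4 and 6 and at -1.93 without mice 2, 3 and 5.

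Among unirradiated mice, most receptors were higher in old than in young blood on the scale used here, as were most genes. Of the 9 receptors 7 were DEGs (background 63.6%), 6 upregulated (background 48.1%) and 1 downregulated (background 15.5%) with age, and the same number of receptors did not overlap between the ages (background 48.5%). *Cxcr2* was 2.93 ± 0.43 higher (limma adjusted p = 7.08e-05), or 7.62-fold, *Ccr2* 1.80 ± 0.24 higher (limma adjusted p = 3.64e-05), or 3.49-fold, and *Cxcr3* 1.71 ± 0.48 higher (limma adjusted p = 0.00529). *Cxcr5*, *Cxcr4* and *Ccr6* were 0.92, 0.83 and 0.75 higher. *Ccr9* alone was lower, by -1.48 ± 0.23 (limma adjusted p = 0.000108), or 2.78-fold. *Ccr3* (0.83, adjusted p = 0.0684) was not called, but was called without young unirradiated mouse 2 (1.13). *Ccr1* was not called (adjusted p = 0.0161), and since its level in young unirradiated mice is only a bound, which lay above the mean of the old mice, no fold is given.

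The median of all genes was itself 0.62 higher in old unirradiated mice, and was -0.03 after scaling to the 75th percentile, 0.11 after quantile normalization, -0.11 after scaling to the median of probes bright on every array and 0.02 in the deposited table. Of all genes called, 8428 were higher and 2716 lower in old mice on the scale used here, against 1561 and 4046 under the 75th percentile. Relative to the median of all genes, *Ccr6* was 0.12, *Cxcr4* 0.21 and *Cxcr5* 0.30 higher, against 2.31 for *Cxcr2*, 1.18 for *Ccr2*, 1.08 for *Cxcr3* and -2.10 for *Ccr9*. Under each of these 4 alternatives 3 receptors were called, *Cxcr2* and *Ccr2* upregulated and *Ccr9* downregulated, with differences of 2.31 to 2.43, 1.15 to 1.28 and -2.06 to -1.80. In the deposited table *Ccr6* was at -0.018. Under normexp 0 were called by limma, with 2 at an unadjusted p below 0.05. Of all 11779 genes tested under normexp, 0 were called in this comparison. In 1 fit of all 24 arrays, *Cxcr2*, *Ccr2*, *Cxcr3* and *Ccr9* were called and *Ccr6*, *Cxcr4* and *Cxcr5* were not.

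**Figure D5:**
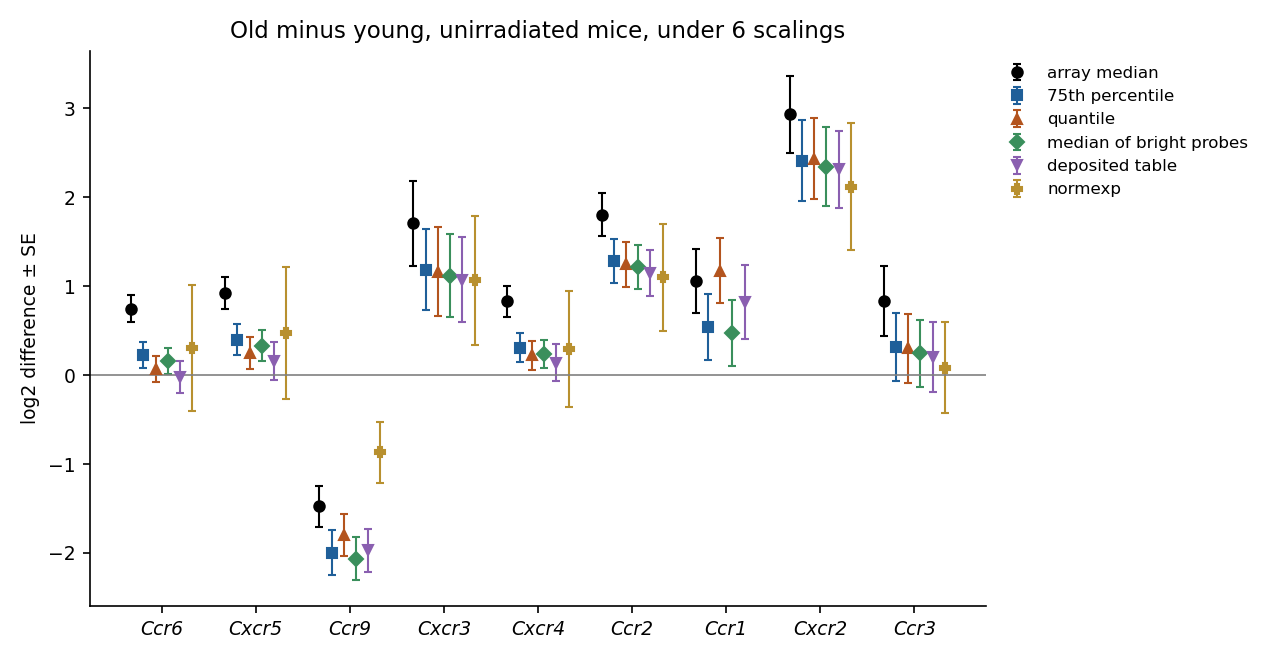
Log2 difference ± SE between old and young unirradiated mice (y axis) of each receptor (x axis) under 6 scalings or background corrections (symbols). *Cxcr2* and *Ccr2* are above 0 and *Ccr9* below 0 under all 6, *Ccr6*, *Cxcr4* and *Cxcr5* are near 0 under most but the array median, and *Ccr1*, shown as measured against a group not well above background, has no normexp value because it did not pass the filters there.

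*Cxcr3* did not overlap between the ages, but its call lay near the threshold of 0.005 (limma unadjusted p = 0.0032). The call was lost when old unirradiated mouse 1, 2 or 6 or young unirradiated mouse 1, 2, 4, 5 or 6 was left out. The differences were then 1.37 to 1.75, at unadjusted p between 0.00507 and 0.00784, and were smallest without old mouse 6 or 1. It was also lost when old unirradiated mice 1 and 6 were averaged (1.38, limma adjusted p = 0.01, with the unadjusted p above 0.005). Neutrophil markers moved with *Cxcr2*: 8 of 11 were upregulated in old unirradiated mice, with a median of 1.62. Of all genes 48.1% were upregulated and 15.5% downregulated in this comparison. Of 8 monocyte markers 4 were upregulated, with a median of 0.88, of 9 B cell markers 4, with a median of 0.66, and of 10 T cell markers 1 was upregulated and 1 downregulated, with a median of 0.31. The medians of the B cell and T cell lists lay near or below the 0.62 of all genes, and the part of any of these cells in the receptor values was not tested.

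Among irradiated mice no receptor was called between the ages. Of the 9, 0 were DEGs by limma (background 2%), 0 with trend and robust variance, and the number that did not overlap between the ages was also 0 (background 5.05%). An unadjusted p below 0.05 was reached by 3 (background 21.3%): *Cxcr2* (1.90 ± 0.70 higher in old mice, limma adjusted p = 0.144), *Cxcr3* (1.28 ± 0.40 higher, limma adjusted p = 0.1) and *Ccr6* (0.96 ± 0.37 higher, limma adjusted p = 0.156). Without old irradiated mice 4 and 6, 4 receptors were called, *Cxcr2* (2.88), *Cxcr4* (1.75), *Ccr1* (1.58) and *Ccr6* (1.48), all higher in old mice, beside 4975 of all genes. Without mice 2, 3 and 5 only *Cxcr5* was called, lower in old mice by -1.61 (adjusted p = 0.0297), beside 1851 of all 17523 genes. In 1 fit of all 24 arrays *Cxcr2* and *Ccr6* were called, beside 2523 of all genes, and with a random slide block *Cxcr3* was, beside 1345.

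Whether the response to radiation differed between the ages was tested directly, as the interaction of age and radiation over the 24 arrays. Of the 9 receptors 0 were called by limma (background 0%), 0 with trend and robust variance and 3 had an unadjusted p below 0.05 (background 23.5%): *Ccr9* (1.69 ± 0.42, limma adjusted p = 0.107), *Ccr2* (-2.39 ± 0.64, limma adjusted p = 0.111) and *Cxcr5* (-1.37 ± 0.60, limma adjusted p = 0.183). *Ccr9* fell in young mice, from the highest group to the level of both old groups, and *Ccr2* fell in old mice, from the highest group. The difference of *Ccr6* between the ages was 0.21 ± 0.40 (limma adjusted p = 0.736), and that of *Cxcr4* was -0.012 ± 0.62. Both contrasts within an age share their unirradiated mice with the comparison of unirradiated ages. Without old irradiated mouse 3, *Ccr2* (-2.51), *Ccr9* (1.56) and *Cxcr5* (-1.79) were called, at adjusted p of 0.0427, 0.0459 and 0.045, beside 1024 of all genes.

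The receptors also differed in how they varied over the 24 arrays. With each gene centred on its own mean, the closest pair of receptors was *Ccr2* and *Cxcr4*, with a root mean square log2 difference of 0.76, followed by *Ccr3* and *Cxcr4* (0.94) and *Ccr1* and *Cxcr2* (1.06). The B cell receptors *Ccr6* and *Cxcr5* were 1.24 apart, and *Ccr6* and *Cxcr2*, which moved in opposite directions after irradiation, were the farthest pair at 3.43. The measure depends also on how far each receptor itself varied about its mean. That root mean square was 0.998 for *Cxcr4*, 1.01 for *Ccr3* and 1.13 for *Ccr2*, against 1.63 for *Cxcr5* and 2.56 for *Ccr6*. The order of the pairs is therefore not an order of how alike their patterns are. Among 12740 genes with a symbol searched in the same way, those with the pattern closest to *Ccr6* were *H2-Eb2* (0.47) and *Fcer2a* (0.70), to *Cxcr5* *Stac2* (0.35) and *Blnk* (0.41), and to *Ccr9* *Trat1* (0.45) and *Camk4* (0.49). The closest to *Cxcr3* were *Abcb1a* (0.33) and *Btbd11* (0.37), to *Cxcr4* *Ptpn6* (0.27) and *Arhgap25* (0.27), and to *Ccr2* *Olfm1* (0.33) and *Ms4a6c* (0.38). For *Ccr1* they were *Pilrb2* (0.49) and *Slfn1* (0.49), for *Cxcr2* *Chil1* (0.31) and *Cd300lf* (0.36), and for *Ccr3* *Inpp5j* (0.32) and *Adora3* (0.41). All values of a gene come from the arrays that also gave the receptor, so they share the scaling of each array, and the measure is a description.

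The other chemokine receptors on the array numbered 14, of which 11 were tested. In young irradiated mice 2 were upregulated (background 14.4%) and 3 downregulated (background 21.3%). In old irradiated mice 1 was upregulated (background 7.6%) and 2 downregulated (background 17.3%), so that the counts lay near the shares of all genes. *Ccr7*, which brings lymphocytes into lymph nodes, fell, with differences of -3.14 ± 0.20 in young and -3.70 ± 0.52 in old mice (limma adjusted p = 5.6e-07 and 0.000504). *Cx3cr1*, the fractalkine receptor of monocytes and NK cells, fell as well, with -1.14 and -2.22 (adjusted p = 0.00611 and 0.0044). *Cxcr1*, the close relative of *Cxcr2*, rose by 1.71 and 2.26 (adjusted p = 0.000629 and 0.0189). It was the 1 receptor of either list called between the ages in irradiated mice, 2.52 ± 0.60 higher in old mice, just under the threshold (limma adjusted p = 0.0486). Other scalings were not tried for this list. Over all genes, the 350 calls of this comparison fell to 114 under the 75th percentile and to 44 in the deposited table. *Ackr1*, an atypical receptor of red cells and venules, fell by 1.33 in young mice (adjusted p = 0.00665), where red cell markers also fell (3 of 5 tested). In old mice *Ackr1* differed by -0.38 ± 0.82 and was not called (limma adjusted p = 0.737). There 0 red cell markers were called by limma, with a median of -1.77. The part of red cells in the *Ackr1* values was not tested. *Cxcr6*, of T and NK cells, was not called in any comparison, with differences of 0.55 in young and 0.84 in old irradiated mice.

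Of 22 ligands of the 9 receptors on the array, 12 were tested. In young irradiated mice 7 were DEGs, all upregulated (background 14.4%), with a median of 1.14 beside -0.20 over all genes. In old irradiated mice 1 was upregulated (background 7.6%). Markers of tissue macrophages, cells that make several of these ligands, also rose, 7 of 8 in young irradiated mice, with a median of 4.79, and 1 in old irradiated mice, and their part in the ligand values was not tested. *Ppbp*, the platelet ligand of CXCR2, rose at both ages, by 1.41 ± 0.26 in young and 1.54 ± 0.32 in old mice (limma adjusted p = 0.000797 and 0.00338). *Ccl6* and *Ccl9*, ligands of CCR1, rose by 1.75 and 1.90 in young mice (adjusted p = 0.000117 and 0.000856) and differed by 0.23 and -1.29 in old mice, where neither was called. *Ccl5*, the ligand of CCR1 and CCR3 among others, differed by 0.092 in young and -0.012 in old mice, and *Cxcl11*, a CXCR3 ligand, by -0.45 and -0.23, and neither was called. Between unirradiated ages 6 of the 12 ligands were higher in old mice, near the background of 48.1% of all genes. *Ccl5* was among them, 1.62 ± 0.42 higher (limma adjusted p = 0.00311). Other scalings were not tried for this list.

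Of 20 genes of receptor signalling, all tested, 7 were upregulated (background 14.4%) and 1 downregulated (background 21.3%) in young irradiated mice. In old irradiated mice 4 were upregulated (background 7.6%). *Arrb1*, a beta-arrestin that ends signalling and carries receptors into the cell, rose by 1.55 in young and 1.42 in old mice (limma adjusted p = 0.000146 and 0.00189), and *Rgs18*, a regulator of G protein signalling of platelets, by 2.26 and 1.73 (adjusted p = 0.000141 and 0.00307). *Gnai2*, the inhibitory G protein alpha subunit through which these receptors act, rose by 0.83 in young mice (adjusted p = 0.00311) and differed by 0.43 in old mice, where it was not called. *Rac2*, a GTPase of leukocyte movement, and *Rgs2* were not called after irradiation at either age. Between unirradiated ages 18 were higher (background 48.1%) and 1 lower (background 15.5%) in old mice, with a median of 1.0 beside 0.62 over all genes. These counts hold on the array-median scale, and other scalings were not tried for this list.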

How the data were processed

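Processed signal intensities of 24 arrays, 1 mouse each, were deposited per array as written by Agilent Feature Extraction 12.0.2, background-subtracted and not scaled between arrays. The deposited log2 table of the authors (log2-transformed and filtered, normalization not fully given in the sources used here) served as an alternative. Here log2 intensities were centred on the array median of 43020 non-control spots. Following the methods of the study, probes were dropped if, in at least 25% of the arrays, they were non-uniform or dim (lacking the scanner's flag for signal significantly above background, which is less strict than its well-above-background flag). The brightest probe stood for each gene, and genes lacking a 1.5-fold difference in 20% of the arrays (5) were dropped, which left 17523. Pairs of groups were compared by limma 3.58.1 (R 4.3.3) on 12 arrays, and the interaction on 24, with no block. The script, tested on simulated data, recovered 89% of changes of 2 log2 units in young and 62% in old irradiated mice. For changes of that size it recovered 91% between unirradiated ages, 57% between irradiated ages and 45% for the interaction. For changes of 1 log2 unit it recovered 48% in young and 12% in old irradiated mice. Between unirradiated ages that share was 57%, between irradiated ages 8% and for the interaction 12%. Named were all 9 receptors, up to 5 of the brightest genes of each list, and the 2 genes nearest each receptor; *Epx* was chosen after its values were seen. The receptors and lists were chosen with earlier results of these data known. Promoters matched 8 of 9 receptors. Alternatives were other scalings, background correction (normexp, offset 50), filters, variance models, blocks and omitted arrays. The number of arrays limits the precision.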

Additional observations from a re-analysis of the deposited data

Results flagged for a closer look

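Among the 36 sets of 6 mice (9 receptors in 4 groups), 3 held a mouse whose gap to its nearest neighbour, divided by the range of the group, was above Dixon's critical value for 6 samples. Chance flags about 1 in 20 groups. They were *Ccr2* in old unirradiated mouse 3, the lowest at 5.17 (0.768), *Ccr3* in old unirradiated mouse 2, the lowest at 3.09 (0.636), and *Cxcr5* in young irradiated mouse 4, the highest at 5.47 (0.737). The difference of -2.39 between the responses of *Ccr2* in old and young mice drew attention because all 6 young irradiated mice lay above the mean of the young unirradiated mice and all 6 old irradiated mice below that of the old unirradiated mice, while the interaction test of limma did not pass (adjusted p = 0.111).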

How the results depend on the processing

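Limits were set by signal over background for dim probes such as *Ccr1* and by the spread of the old irradiated mice. Of 1309 receptor values recomputed, 1175 kept their direction and their side of the threshold, 53 lost and 21 gained a call, and 60 changed sign, 1 of them called to begin with (*Ccr6* between unirradiated ages, -0.018 in the deposited table). The causes were not tested. *Ccr6* stayed a DEG after irradiation at both ages under all alternatives run. Replicate numbers did not pair the mice, since same-numbered mice had deviations correlated between -0.60 and 0.59, and with the replicate block the receptor counts were 6 in young, 3 in old, 7 between unirradiated ages, 0 between irradiated ages and 0 for the interaction.

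Counts of receptors called fell under normexp to 2 in young mice (1 up, 1 down), 1 in old mice and 0 between unirradiated ages, and with slide as a fixed block, which could not be fitted between ages, to 4 in young and 1 in old mice. Between unirradiated ages 3 were called under 75th percentile scaling, quantile normalization, the median of bright probes and the deposited table (2 up, 1 down, against 6 up, 1 down), and 4 in 1 fit of all 24 arrays. Young mice had 5 in the deposited table (1 up, 4 down). Between irradiated ages 2 were called in 1 fit of 24 arrays, 4 when old irradiated mice 4 and 6 were omitted, 1 when mice 2, 3 and 5 were, and 1 under a random slide block. For the interaction 4 were called without mice 2, 3 and 5 (*Ccr2*, *Ccr3*, *Ccr9*, *Cxcr5*), beside 5966 of all genes. Over all genes, 6251 were called in young mice (835 under normexp, 1809 with slide as a fixed block, 3748 in the deposited table and 3970 in 1 fit of 24 arrays), 4369 in old mice (8, 501 and 2845 under the first 3 of these, and 7078 without mice 2, 3 and 5) and 11144 between unirradiated ages (0 under normexp, and 4448 to 6058 under the other scalings, the deposited table and 1 fit of 24 arrays). Between irradiated ages 350 were called, with 2 under the replicate block and 4975 without mice 4 and 6 as the extremes. Leaving out 1 mouse gave 6 to 6 in young, 2 to 3 in old, 6 to 8 between unirradiated ages, 0 to 0 between irradiated ages and 0 to 3 for the interaction.

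The other sign changes were of receptors not called. In young mice they were *Ccr3* in the deposited table (-0.0096) and with slide as a random block (-0.076), and *Ccr2* with slide as a fixed block (-0.062). In old mice *Ccr9* and *Cxcr3* were at 0.013 and 0.076 under the 75th percentile, 0.059 and 0.12 under the median of bright probes and 0.021 and 0.32 under normexp, where *Ccr3* was at 0.33. With slide as a fixed block *Ccr9* was at 0.35 and *Cxcr4* at 0.20, without mice 4 and 6 *Ccr3* was at 0.31, and with old unirradiated mice 1 and 6 averaged *Cxcr3* was at 0.099. Between irradiated ages *Ccr3* was at -0.034, -0.059, -0.080 and -0.069 under the 75th percentile, quantiles, bright probes and the deposited table, and *Ccr9* at -0.012 under the 75th percentile and -0.058 under bright probes. Without mice 2, 3 and 5 *Ccr3* was at -1.20 and *Cxcr4* at -0.0085, without mice 4 and 6 *Ccr2* was at 0.37 and *Cxcr5* at 0.11, and without young irradiated mice 2, 4 and 5 *Ccr3* was at -0.056 and *Ccr9* at -0.095. For the interaction *Cxcr4* was at 0.28, 0.30, 0.30, 0.26 and 0.37 under the 75th percentile, quantiles, bright probes, normexp and the deposited table, 0.92 without mice 4 and 6 and 0.025 with the averaged pair, *Ccr3* at 0.11 under normexp and 0.21 without mice 4 and 6, *Ccr1* at 0.31 in the deposited table and 0.51 without mice 4 and 6, and *Ccr6* at -0.44 without mice 2, 3 and 5.

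Leaving out 1 mouse moved *Ccr3* between -0.091 and 0.40 and *Cxcr3* between -0.022 and 0.48 in young mice, *Cxcr3* between -0.46 and 0.11 in old mice, *Ccr3* between -0.26 and 0.56 between irradiated ages, and for the interaction *Cxcr4* between -0.26 and 0.38 and *Ccr1* between -0.78 and 0.044.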
